A study of Mus musculus with 2 samples.

Results

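The acyl-CoA thioesterase (Acot) family was described in RNA sequencing of mouse liver after adenoviral delivery of GBP5 or of β-galactosidase (β-Gal). The family was taken as the genes Acot1, Acot2, Acot3, Acot4, Acot5, Acot6, Acot7, Acot8, Acot12 and Acot13, matched by Ensembl identifier to GENCODE symbols, and all 10 were found among the 47442 features measured. Mice labelled C57BL/6, 8 to 9 weeks old, were sampled 10 days after injection of adenovirus into the tail vein. In one group the virus carried GBP5, an interferon-induced guanylate-binding GTPase, and in the other it carried β-Gal, a bacterial enzyme used as the control. Both groups had thus received an adenovirus; the sources used here give neither the promoter in the viruses nor how many animals a library represents. There was 1 library per group, so differences have no replicate check and no p-value is given. The family was chosen from its FPKM in these same 2 libraries, so all values of its members are a description.

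Acyl-CoA thioesterases cleave the thioester bond of an acyl-CoA, releasing the free acid and coenzyme A, and so act against the acyl-CoA synthetases that make it. Type I members share an α/β-hydrolase fold and type II members a hotdog fold, and individual members work in the cytosol, in mitochondria or in peroxisomes. In rodent liver several type I genes are known targets of PPAR-alpha, the nuclear receptor that fasting and fibrate drugs activate.

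The type I genes lie next to each other on the plus strand of chromosome 12, and 2 of them, Acot1 and Acot2, are close copies. Their coding sequences in GENCODE M21, 1257 and 1359 bases without the stop codon, were 95.3% identical over 1236 aligned bases. The start of each coding sequence is shown because it sets the mitochondrial enzyme apart from the cytosolic one, with capitals for the 123 bases, or 41 codons, of Acot2 that lie before the start codon of Acot1 (chr12:83987902-83988084 and chr12:84009510-84009569, plus strand, GRCm38).
Acot2: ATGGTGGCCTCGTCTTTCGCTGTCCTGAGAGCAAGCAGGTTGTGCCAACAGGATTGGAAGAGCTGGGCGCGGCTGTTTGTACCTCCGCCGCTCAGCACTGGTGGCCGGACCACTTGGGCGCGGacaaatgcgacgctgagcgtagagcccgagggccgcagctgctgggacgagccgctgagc
Acot1: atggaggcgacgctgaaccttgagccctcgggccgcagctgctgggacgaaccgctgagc
Of the 60 bases that follow the capitals in Acot2, 50 were identical in Acot1. The longest identical run, 273 bases in the last exon of each gene (chr12:83992728-83993000 in Acot2 and chr12:84017006-84017278 in Acot1), is shown because a read that falls wholly within it cannot be assigned to either gene by its sequence.
Acot1 and Acot2, shared run: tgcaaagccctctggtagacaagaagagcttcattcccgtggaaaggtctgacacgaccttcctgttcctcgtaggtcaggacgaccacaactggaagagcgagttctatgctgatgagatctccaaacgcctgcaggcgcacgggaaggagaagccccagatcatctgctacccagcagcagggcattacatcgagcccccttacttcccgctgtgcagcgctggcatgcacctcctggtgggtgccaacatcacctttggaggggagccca
Of all windows of 100 bases in the longest coding isoform, 21.9% in Acot1, 17.1% in Acot2, 14.3% in Acot3, 8.32% in Acot5, 1.7% in Acot6 and 0.36% in Acot4 also occurred in a transcript of another gene, and none did in Acot7, Acot8, Acot12 or Acot13. The genes that shared windows with Acot3 included Gm49366, which is not a member. The sources used here do not say how reads with several matches were counted, so the split between the type I genes, above all between Acot1 and Acot2, is uncertain. That between Acot3 and Gm49366 is uncertain too.

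The 250 bases before the RefSeq start of Acot2, Acot1, Acot4 and Acot3 are shown because these adjacent genes differed in direction between the libraries (GRCm38.p6, plus strand, chr12:83987611-83987860, chr12:84009252-84009501, chr12:84038129-84038378 and chr12:84051894-84052143). Capitals mark matches, on either strand, to AGGTCA, the single repeat unit that nuclear receptors bind, the antioxidant response element core TGACNNNGC, the E box CACGTG and the TATA box TATAAA.
Acot2: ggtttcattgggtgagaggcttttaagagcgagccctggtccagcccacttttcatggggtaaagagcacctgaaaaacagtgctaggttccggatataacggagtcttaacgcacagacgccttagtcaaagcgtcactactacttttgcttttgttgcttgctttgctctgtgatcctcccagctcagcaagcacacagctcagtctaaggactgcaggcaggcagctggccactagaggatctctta
Acot1: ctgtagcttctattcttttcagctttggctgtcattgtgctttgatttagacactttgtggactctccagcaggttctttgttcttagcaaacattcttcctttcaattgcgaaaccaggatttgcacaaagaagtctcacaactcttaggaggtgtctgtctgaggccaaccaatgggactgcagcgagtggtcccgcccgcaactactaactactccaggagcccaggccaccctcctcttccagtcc
Acot4: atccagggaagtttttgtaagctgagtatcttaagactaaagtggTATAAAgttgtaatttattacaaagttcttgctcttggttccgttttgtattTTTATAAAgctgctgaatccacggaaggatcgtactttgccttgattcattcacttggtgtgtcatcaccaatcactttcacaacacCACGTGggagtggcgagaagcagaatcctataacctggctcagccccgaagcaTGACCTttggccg
Acot3: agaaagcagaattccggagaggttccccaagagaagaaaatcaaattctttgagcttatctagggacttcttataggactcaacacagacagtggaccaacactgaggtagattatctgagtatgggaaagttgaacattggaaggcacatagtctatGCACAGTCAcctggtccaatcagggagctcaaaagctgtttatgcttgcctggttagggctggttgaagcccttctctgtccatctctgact
RefSeq promoters were held for 8 of the 10 members, all except Acot6 and Acot13. The full PPAR/RXR element, AGGTCA repeated on the same strand with 1 base between, was present in 0.0335% of 32851 promoter windows of the same length, and a looser form, GGTCA repeated with 2 bases between, in 0.164%; neither was in any of the 8. The single AGGTCA, in 14.0% of all windows, occurred in Acot4, Acot5 and Acot12, the antioxidant core, in 10.2%, in Acot3, and the E box, in 6.02%, and TATA box, in 12.4%, in Acot4. In Acot4 the TATA letters occurred on both strands at overlapping places. No listed letters occurred in the windows of Acot1 and Acot2.

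Across the series, whole reads could be recovered from the FPKM (fragments scaled by transcript length and by the reads assigned in the library), which gave library totals of 17205716 reads with GBP5 and 18405429 with β-Gal. The log2 ratio was taken after adding 1 FPKM to both values, GBP5 over β-Gal. Among 13599 features that reached 1 FPKM in at least 1 library, those with a log2 ratio of 1 or more are called higher, and those of -1 or less lower. Most features lay above parity, with a median log2 ratio of 0.48, and 19.2% of all features were called higher and 5.56% lower. Of the features past 2-fold in either direction, 77.5% were higher. After rescaling the GBP5 library by the median FPKM ratio of 11828 genes, 1.45 (0.53 on the log2 scale), that share was 42.9%. Once rescaled, 7.04% of all features were called higher and 9.38% lower, and each Acot ratio is given on both scales. The 50 most abundant genes held 23.9% of FPKM with GBP5 and 34.2% with β-Gal. Mouse Gbp5 was at 19.1 FPKM with GBP5 and 4.24 FPKM with β-Gal. All 10 hepatocyte markers were abundant, at 160 to 43400 FPKM with GBP5 and 418 to 74200 FPKM with β-Gal, and 5 of them were called lower with GBP5 (9 after rescaling). Pancreatic acinar markers summed to 13.95 FPKM with GBP5 and 914 FPKM with β-Gal, with 6 of the 10 at 0 with GBP5, among them Ctrb1, Pnlip and Cpa1, and none at 0 with β-Gal. Neutrophil markers summed to 206 and 1961 FPKM (9 of 9 called lower on both scales), T and NK cell markers to 139.5 and 43.2 FPKM (8 of 10 higher, 5 after rescaling), and macrophage and Kupffer cell markers to 767 and 595 FPKM (3 of 10 higher and 1 lower; once rescaled, 1 higher and 2 lower), in the GBP5 and the β-Gal library. Clock genes, which mark time of day, had 1 of 12 called higher and 2 lower, or 0 and 5 once rescaled, and Dbp was at 11.0 FPKM with GBP5 and 55.8 FPKM with β-Gal. The part that these differences play in the Acot values was not tested, and in bulk tissue fewer cells of a type and less RNA per cell cannot be told apart.

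All 10 members reached 1 FPKM in at least 1 library, 8 of them in both and Acot5 and Acot6 with GBP5 alone. Passing through the GBP5 library alone sets a ratio above parity as deposited, so no weight is put on the direction of Acot5 and Acot6. As deposited, 2 were called higher, Acot1 and Acot2, against 19.2% of all features called in that direction. A single member, Acot3, was called lower, against 5.56% of all features. The median log2 ratio of the members was 0.50, beside 0.48 for all features. After rescaling, Acot2 alone was called higher (7.04% of all features) and Acot3 and Acot4 were called lower (9.38%), and the median was 0.09, beside 0.03. The members were thus spread on either side of the bulk of genes, with log2 ratios between -1.04 and 3.21. The call at 2-fold fell just outside Acot8, at 0.86, and just inside Acot3, at -1.04.

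**Figure D1:**
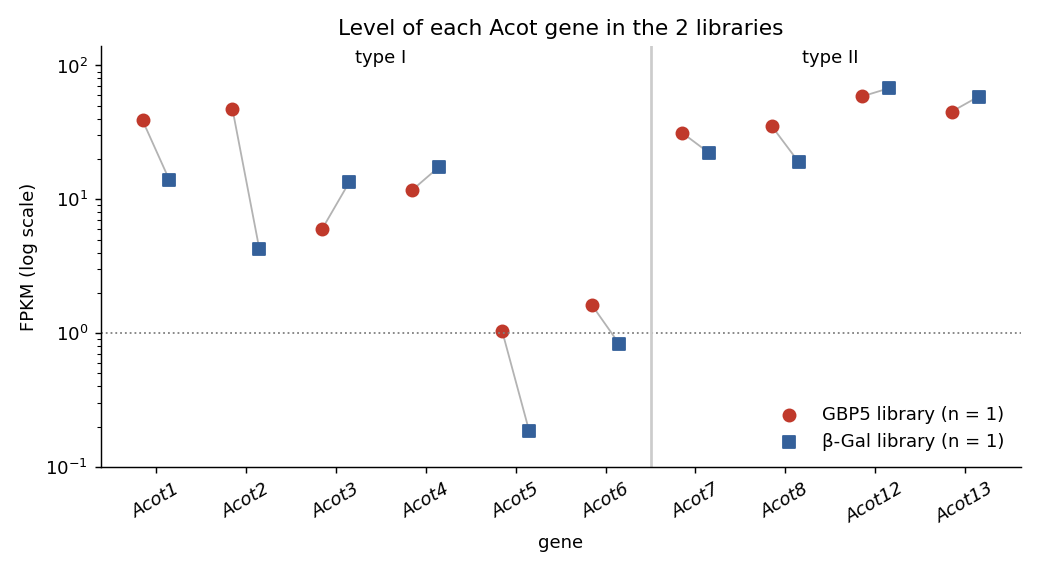
FPKM of each Acot gene on a log scale, with the GBP5 library as red circles and the β-Gal library as blue squares (1 library each). Acot2 had 47.4 FPKM with GBP5 and 4.23 FPKM with β-Gal, whereas Acot3 and Acot4 lay lower with GBP5. The dotted line is 1 FPKM.

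Acot2 encodes the mitochondrial matrix enzyme, which acts on long-chain acyl-CoA (ENSMUSG00000021226, chromosome 12, 83987861 to 83993873, GRCm38). It was at 47.4 FPKM, from 1790 reads, in the GBP5 library and at 4.23 FPKM, from 171 reads, in the β-Gal library. The ratio was 11.2, with an exact (Clopper-Pearson) 95% interval of 9.57 to 13.2 that covers counting error only, and 7.73 (6.61 to 9.10) after rescaling. Of the 13599 features, 51, or 0.375%, had a higher log2 ratio than the 3.21 of Acot2. Among 7579 protein-coding genes with at least 10 FPKM in a library, those with a log2 ratio nearest to that of Acot2, over the 2 libraries, were Nid1, Amn, Wfdc3, Tgtp2 and Spon2, each within 0.06. This nearness holds with the pseudocount. Without it the ratios were 11.7 for Nid1, 9.49 for Tgtp2 and 10.7 for Spon2, but 25.3 for Amn and 35.5 for Wfdc3. Amn and Wfdc3 had only 16 and 6 reads with β-Gal. Nid1, a basement membrane gene, was at 39.5 FPKM with GBP5 and 3.37 FPKM with β-Gal, and Tgtp2, an interferon-induced GTPase gene, at 125 FPKM with GBP5 and 13.2 FPKM with β-Gal.

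Acot1 encodes the cytosolic long-chain enzyme (ENSMUSG00000072949, chromosome 12, 84009490 to 84018371). It was at 38.9 FPKM (1044 reads) with GBP5 and at 13.9 FPKM (398 reads) with β-Gal, a ratio of 2.81 (interval 2.50 to 3.16). After rescaling the ratio was 1.94 (1.72 to 2.18) and the log2 ratio 0.91, no longer past 2-fold. Because the split of reads between Acot1 and Acot2 is uncertain, their summed reads are given as well, 2834 with GBP5 and 569 with β-Gal, a ratio of 5.33 per library total (interval 4.87 to 5.84), or 3.68 (3.36 to 4.03) after rescaling. Within each library the order of the pair differed, with Acot2 at 1.22 times the FPKM of Acot1 with GBP5 and at 0.305 times with β-Gal.

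Acot3 and Acot4 encode peroxisomal enzymes, Acot3 for long-chain acyl-CoA and Acot4 for succinyl-CoA and other dicarboxylic substrates, and both were lower with GBP5. Acot3 (ENSMUSG00000021228, chromosome 12, 84052144 to 84060402) was at 6.04 FPKM (231 reads) with GBP5 and 13.4 FPKM (550 reads) with β-Gal. Its ratio was 0.449 (interval 0.384 to 0.525), a 2.23-fold lower level, and 0.310 after rescaling. Acot4 (ENSMUSG00000052392, chromosome 12, 84038379 to 84048601) was at 11.7 FPKM with GBP5 and 17.5 FPKM with β-Gal, a ratio of 0.670 (interval 0.578 to 0.776), or 0.463 after rescaling. Reads of Acot4 were 300 with GBP5 and 479 with β-Gal or a common multiple of these, and the interval uses the smaller numbers. An antisense gene, 4732463B04Rik, overlaps Acot3 and Acot4, and was at 0.951 FPKM with GBP5 and 0.889 FPKM with β-Gal; the sources used here do not give the strand setting of the counts.

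Acot5 and Acot6, which also encode peroxisomal enzymes, were at low levels. Acot5, known for medium-chain substrates (chromosome 12, 84069325 to 84076020), was at 1.03 FPKM (26 reads) with GBP5 and 0.186 FPKM (5 reads) with β-Gal, a ratio of 5.56 whose interval ran from 2.10 to 18.5, or 3.84 (1.45 to 12.8) after rescaling. On the scale with the pseudocount its log2 ratio was 0.78, short of 2-fold. Acot6 (chromosome 12, 84100654 to 84111349) was at 1.61 FPKM (94 reads) with GBP5 and 0.834 FPKM (52 reads) with β-Gal, a ratio of 1.93 (interval 1.36 to 2.77). After rescaling the ratio of Acot6 was 1.34, with an interval of 0.942 to 1.91 that held parity.

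**Figure D2:**
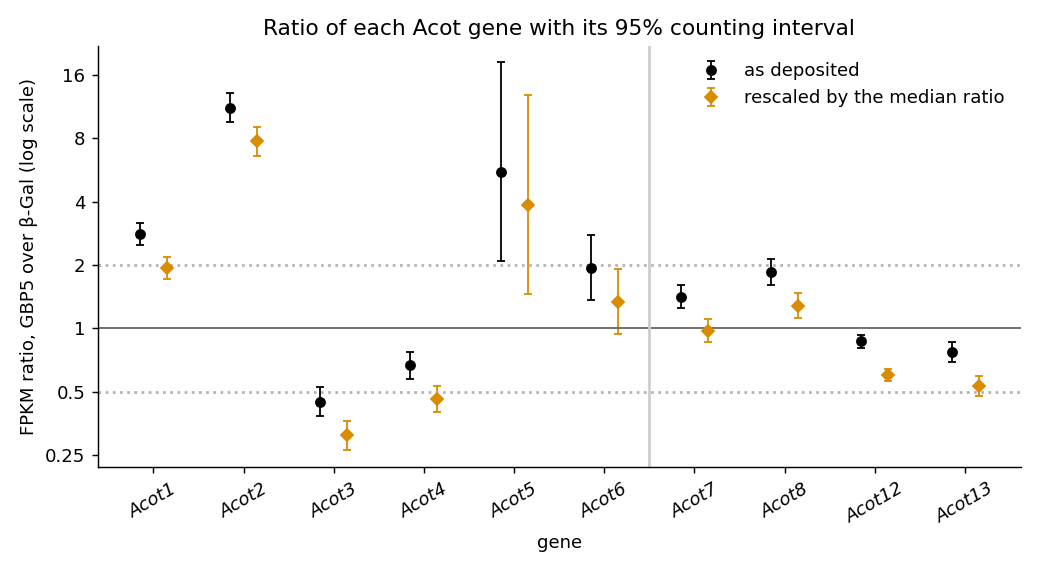
FPKM ratio of GBP5 over β-Gal for each Acot gene on a log scale, as deposited (black circles) and rescaled by the median ratio (orange diamonds), with exact 95% counting intervals as bars and 1 library per group. Dotted lines mark 2-fold. On both scales the bars of Acot1, Acot2, Acot5 and Acot8 lay above parity. Those of Acot3, Acot4, Acot12 and Acot13 lay below it on both scales.

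None of the 4 type II members was called higher or lower on either scale, and their log2 ratios as deposited ran from -0.37 to 0.86. Beside them, 19.2% of all features were called higher and 5.56% lower as deposited, and 7.04% and 9.38% after rescaling. Most features were thus not called either, and 4 genes are too few to set apart from these shares. Acot9, Acot10 and Acot11 are outside the members and their sums. Acot9, called higher on both scales, is given below with the other CoA-cleaving enzymes. Acot8 encodes a peroxisomal enzyme with a broad range of substrates, bile acid CoA esters included (chromosome 2, 164792765 to 164804882, minus strand). It was at 35.1 FPKM (551 reads) with GBP5 and 18.9 FPKM (317 reads) with β-Gal, a ratio of 1.86 (interval 1.62 to 2.14), or 1.28 after rescaling. The gene Snx21 overlaps it on the other strand, at 4.38 FPKM with GBP5 and 5.48 FPKM with β-Gal. Acot7, known from brain for its action on arachidonoyl-CoA (chromosome 4, 152178134 to 152271855, plus strand), was at 31.5 FPKM (593 reads) with GBP5 and 22.2 FPKM (448 reads) with β-Gal. Its ratio of 1.42 (interval 1.25 to 1.60) became 0.978 (0.864 to 1.11) after rescaling, so its direction depended on the scale.

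Acot12 and Acot13 were the members with ratios below parity outside chromosome 12. Acot12, the cytosolic acetyl-CoA hydrolase of liver (chromosome 13, 91741512 to 91786148, plus strand), was at 58.7 FPKM (1499 reads) with GBP5 and 67.5 FPKM (1846 reads) with β-Gal, a ratio of 0.869 (interval 0.811 to 0.930). Acot13, also called Them2, a thioesterase that associates with mitochondria and binds phosphatidylcholine transfer protein (chromosome 13, 24817948 to 24831540, minus strand), was at 45.2 FPKM (561 reads) with GBP5 and 58.6 FPKM (778 reads) with β-Gal. Its ratio was 0.771 (interval 0.691 to 0.861), or 0.533 after rescaling, and that of Acot12 was 0.60 on that scale.

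**Figure D3:**
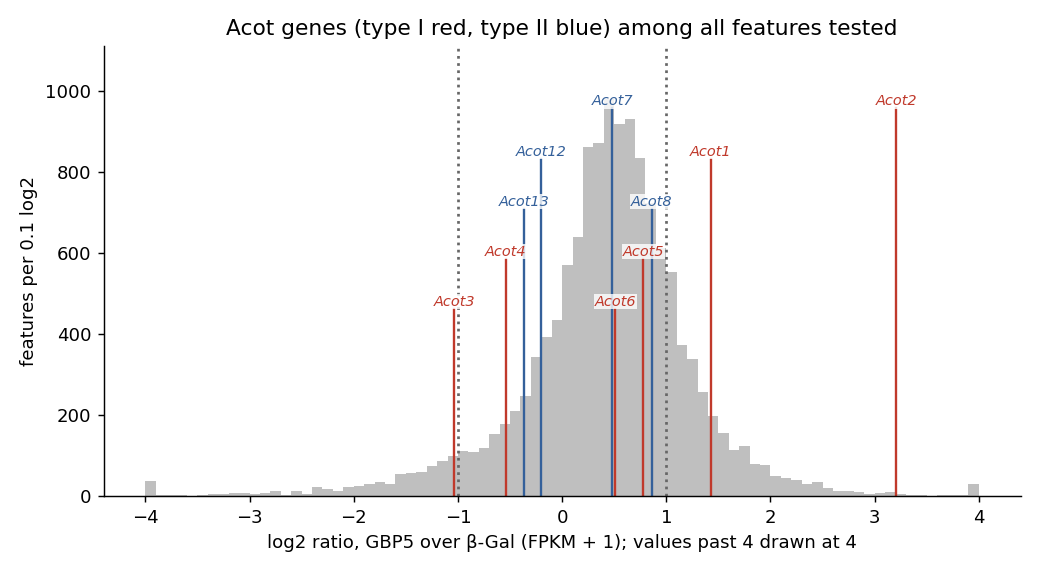
Number of features per step of 0.1 in log2 ratio (FPKM + 1, GBP5 over β-Gal) for all 13599 features tested, with vertical lines at the Acot genes, type I in red and type II in blue. Acot2, at 3.21, stood in the far right of the distribution, and Acot3, at -1.04, in its left part; line heights carry no meaning and dotted lines mark 2-fold.

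The make-up of the family by level differed between the libraries. With GBP5 the order by FPKM was Acot12, Acot2, Acot13, Acot1, Acot8, Acot7, Acot4, Acot3, Acot6 and Acot5, and with β-Gal it was Acot12, Acot13, Acot7, Acot8, Acot4, Acot1, Acot3, Acot2, Acot6 and Acot5. With 1 library per group the spread between animals is unknown, so neighbours in this order cannot be told apart beyond counting error. The type I genes summed to 107 FPKM, 38.5% of the family, with GBP5 and to 50.1 FPKM, 23.0%, with β-Gal. The type II genes summed to 170.5 FPKM with GBP5 and 167 FPKM with β-Gal, a ratio of 1.02, or 0.704 after rescaling. Acot2 took 44.4% of type I FPKM with GBP5 and 8.45% with β-Gal, Acot3 5.66% and 26.8%, and Acot4 11.0% and 35.0%, in the same order of libraries. Summed over the 5 members placed in peroxisomes, the level was 55.5 FPKM with GBP5 and 50.9 FPKM with β-Gal. That is a ratio of 1.09, or 0.754 after rescaling, so its direction depended on the scale. Within that sum Acot8 was at 35.1 FPKM with GBP5 and 18.9 FPKM with β-Gal, and Acot3 to Acot6 together at 20.4 and 32.0 FPKM.

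These levels depend on the length by which the authors divided. The lengths recovered from the files matched the rounded mean of all annotated isoforms, or a single isoform, for 6 members, and short non-coding isoforms enter that mean. For Acot12 the recovered length was 1485 bases, whereas its longest coding isoform has 3058. Taken per length of the longest coding isoform, a choice made after the data were seen, Acot12 was at 28.5 FPKM with GBP5 and 32.8 FPKM with β-Gal, and ranked 3 with GBP5 and 2 with β-Gal. On that scale Acot2, at 47.4 FPKM, ranked 1 with GBP5, and Acot13, at 58.6 FPKM, ranked 1 with β-Gal. There Acot2 took 56.9% of the type I sum with GBP5 and 15.3% with β-Gal, Acot3 4.7% and 31.6%, and Acot4 3.37% and 15.2%, in the same order of libraries. The level of Acot4 on that scale rests on its smallest possible reads and could be higher. Ratios of a gene between the libraries do not depend on length.

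The genes Acot1 to Acot6 span 124 kb of chromosome 12 (83987861 to 84111349), in the order Acot2, Acot1, Acot4, Acot3, Acot5 and Acot6. Their ratios ran from 0.449 for Acot3 to 11.2 for Acot2. Of the 10 other protein-coding genes within 250 kb of that span, 6 reached 1 FPKM, and none was called higher or lower as deposited. Of all features 19.2% were called higher and 5.56% lower, and 6 genes are too few to set apart from these shares. Their ratios ran from 0.884 for Ptgr2 (59.8 FPKM with GBP5 and 67.6 FPKM with β-Gal), which encodes a prostaglandin reductase, to 2.74 for Dnal1 (1.25 and 0.456 FPKM, 41 and 16 reads, interval 1.50 to 5.23). Dnal1 was not called because its log2 ratio with the pseudocount was 0.63. On the Acot2 side, Numb, an inhibitor of Notch signalling, was at 27.0 and 18.4 FPKM (ratio 1.47) and Riox1, a histone demethylase, at 3.62 and 1.85 FPKM (ratio 1.95), in the GBP5 and the β-Gal library. On the Acot6 side, Elmsan1 was at 8.77 and 4.52 FPKM (ratio 1.94) and Zfp410 at 12.5 and 7.09 FPKM (ratio 1.77). Papln, Heatr4, Pnma1 and Fam161b stayed under 1 FPKM in both libraries.

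**Figure D4:**
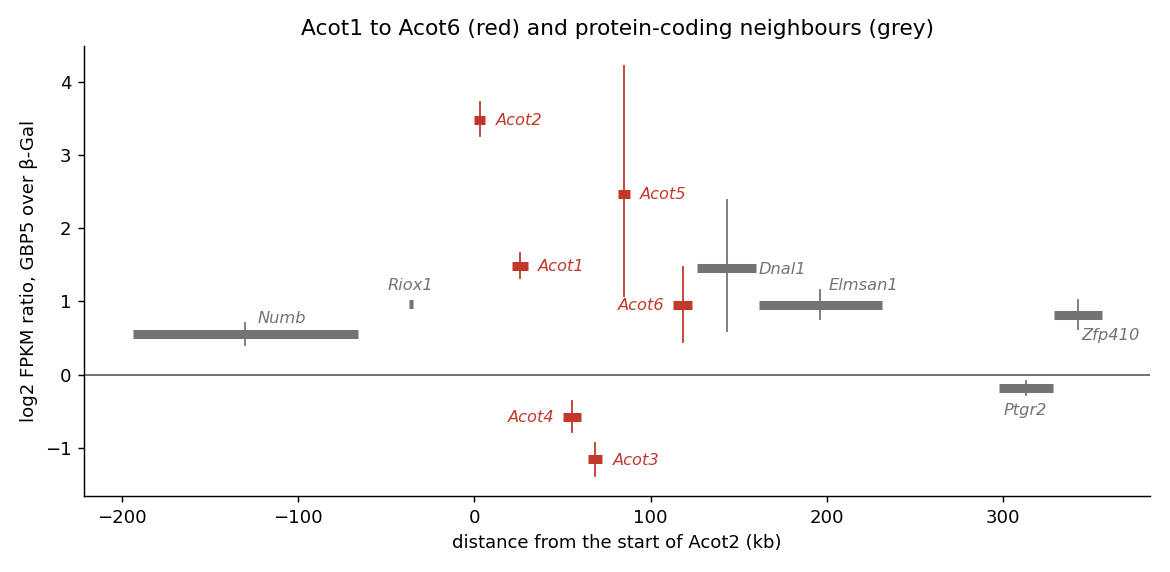
Log2 FPKM ratio, GBP5 over β-Gal, for Acot1 to Acot6 (red) and the protein-coding neighbours with at least 1 FPKM in a library (grey), by distance from the start of Acot2 in kb. Horizontal bars span the genes and vertical lines are 95% counting intervals, not available for Riox1; Acot2 lies at the top and Acot4 and Acot3, further along, below 0.

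Genes that share the acyl-CoA pool were mixed. Beside the counts of this and the following lists, 19.2% of all features were called higher and 5.56% lower as deposited. After rescaling the shares of all features were 7.04% and 9.38%. Of 9 other enzymes that cleave acyl-CoA or CoA, 7 reached 1 FPKM in a library, of which 2 were called higher and 1 lower, on both scales. Acot9, a mitochondrial type II thioesterase, was at 44.5 FPKM (916 reads) with GBP5 and 8.22 FPKM (181 reads) with β-Gal, a ratio of 5.41 (interval 4.61 to 6.38), and Them6 was 4.47-fold higher. Nudt7, a peroxisomal hydrolase of CoA, was at 30.9 FPKM with GBP5 and 173 FPKM with β-Gal, 5.59-fold lower. Baat, which conjugates bile acids and belongs to the type I structural family, was at 119 FPKM with GBP5 and 149 FPKM with β-Gal.

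Among 19 acyl-CoA synthetases that reached 1 FPKM in a library, which make the substrates of the thioesterases, 2 were called higher and 6 lower, or 1 and 7 once rescaled; their median log2 ratio was -0.28. Slc27a5, the bile acid and very-long-chain synthetase of liver, was at 82.1 FPKM with GBP5 and 581 FPKM with β-Gal, 7.08-fold lower. Acss2, which makes acetyl-CoA from acetate, the acid that Acot12 releases, was at 25.5 FPKM with GBP5 and 108 FPKM with β-Gal, 4.22-fold lower. Acsl4, which prefers arachidonate, was 3.14-fold higher (58.9 FPKM with GBP5 and 18.8 FPKM with β-Gal).

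Of 29 PPAR-alpha targets outside the Acot family, 9 (31%) were called higher and 2 (6.9%) lower, beside 19.2% and 5.56% of all features. Once rescaled, 6 were called higher and 6 lower, beside 7.04% and 9.38% of all features. Their median log2 ratio as deposited was 0.47, close to the 0.48 of all features. Pdk4, which restrains glucose oxidation, was at 35.1 FPKM (901 reads) with GBP5 and 3.14 FPKM (86 reads) with β-Gal, a ratio of 11.2. The fatty acid receptor gene Cd36 and the lipid droplet coat gene Plin2 were 4.43-fold and 4.21-fold higher. Cyp4a10, a fatty acid hydroxylase, was among the lower genes, at 27.9 FPKM with GBP5 and 73.7 FPKM with β-Gal, a log2 ratio of -1.37. Ppara itself was at 74.9 FPKM (1941 reads) with GBP5 and 91.1 FPKM (2524 reads) with β-Gal, a ratio of 0.823 (interval 0.775 to 0.873).

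Peroxisomal oxidation genes, the partners of Acot3 to Acot6 and Acot8, had 4 of 24 called higher and 4 lower (2 and 7 after rescaling). Crat, a carnitine acyltransferase that also consumes short acyl-CoA, was 3.85-fold higher, Ehhadh, the bifunctional enzyme, 3.09-fold higher, and Phyh, which starts phytanic acid breakdown, 3.32-fold lower. Mitochondrial oxidation genes, the partners of Acot2, had none of 18 called in either direction as deposited and 2 lower after rescaling. Hadha and Hadhb, the subunits of the trifunctional protein, had ratios of 1.60 and 1.70, and Acaa2, a thiolase, 0.580. Fatty acid and acyl-CoA binding proteins had 4 of 11 higher and none lower (1 and 3 after rescaling), led by Fabp4, Fabp2 and Fabp7 at 3.23-fold, 2.30-fold and 2.32-fold. Of 10 regulators, 2 were called higher (0 once rescaled) and none lower (1 once rescaled). These were Ppard at 17.8 and 6.54 FPKM and Nfe2l2 at 93.2 and 41.9 FPKM, in the GBP5 and the β-Gal library. Pparg was at 22.2 FPKM with GBP5 and 13.2 FPKM with β-Gal.

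**Figure D5:**
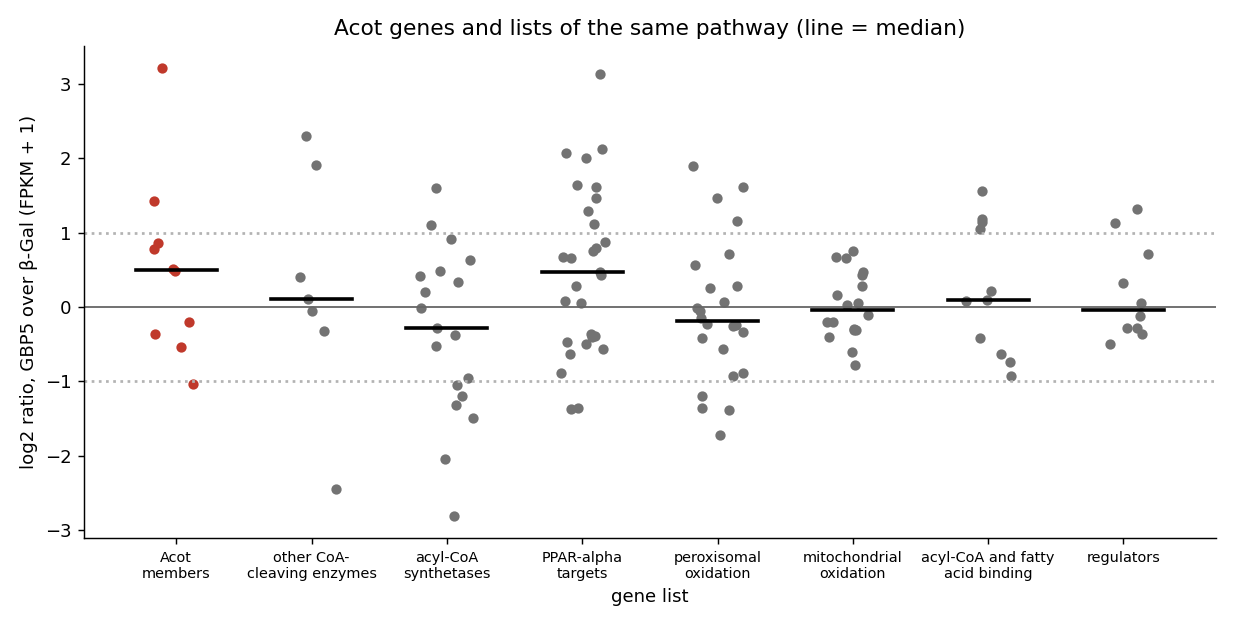
Log2 ratio (FPKM + 1, GBP5 over β-Gal) of the 10 Acot genes (red) and of genes with at least 1 FPKM in a library in 7 lists of the same pathway (grey), 1 point per gene with the list median as a black line and 2-fold as dotted lines. Acot2 at 3.21 and Pdk4 at 3.13 were the highest points shown, and mitochondrial oxidation genes stayed within 2-fold.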

How the data were processed

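Total RNA of frozen liver was sequenced on an Illumina platform, 1 library per virus, and grouped by the adenovirus named in the labels. The deposited values are FPKM per gene; the authors used TopHat2 and HTSeq 0.6.1 on GRCm38, per the submitters' processing notes. Which annotation release, strand setting and FPKM program they used is not given in these sources. Symbols, positions and isoforms came from GENCODE M21 by identifier, for 46574 of 47442 features.

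Single-isoform genes gave each library's total, since FPKM times length came in whole steps. A gene's reads are the smallest whole numbers whose ratio, scaled by the totals, equals its FPKM ratio within 1e-12, multiplied until the implied length was whole and lay within its annotated isoforms; a multiple that gave the rounded mean isoform length or an isoform length was preferred. Whole ratios were found for 99.5% of 18043 genes above 0 in both libraries, and reads for 94.1%. On simulated libraries of 46574 genes, 100.0% of 2987 recovered read pairs were the simulated ones, 100.0% of 4-fold changes were called, and 0.479% of unchanged genes were called. The simulation used the rounded mean isoform length, which the recovery prefers, so it does not check genes with another length. It held counting noise only, so the 0.479% leaves out variation between animals and the median shift. In the deposited files 78.1% of the recovered lengths matched the annotation. Intervals cover counting error only.

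The members and lists were chosen with earlier results of these data known. Genes named are the members, the 3 largest absolute log2 ratios of each pathway list, Ppara, Gbp5, protein-coding neighbours within 250 kb and the 5 genes nearest Acot2; genes that overlap a member (Snx21 and 4732463B04Rik), Cyp4a10, Baat, Dbp and the acinar genes at 0 were named after their values were seen. Of 189 list entries, Nudt8 was not matched. Alternatives were other pseudocounts, filters, scalings and protein-coding genes only. Python 3.11, pandas, scipy and Biopython were used.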

Additional observations from a re-analysis of the deposited data

How the results depend on the processing

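Of the 8 settings other than the one added after the data were seen, only the scalings could change a direction. Pseudocounts, filters and the choice of protein-coding genes cannot move a ratio across parity. The median rescaling and the scaling without the 50 most abundant genes lowered every member's ratio, and equal sums (TPM) raised it. Under these scalings Acot1, Acot2 and Acot8 stayed above parity and Acot3, Acot4, Acot12 and Acot13 below it. Acot7 was at -0.03 under the median rescaling. Acot5 and Acot6 stayed above parity in the 7 settings that kept them. They had passed the filter through the GBP5 library alone, which set that direction as deposited. Across the 8 settings the log2 ratio ranged from 2.50 to 3.45 for Acot2, from 0.91 to 1.50 for Acot1 and from -1.48 to -0.74 for Acot3. Under the median rescaling 1 member was called higher and 2 lower; with a pseudocount of 5 FPKM 0 were lower; with no pseudocount and the median rescaling, added after the data were seen, 2 were higher (Acot2 and Acot5) and 2 lower. With a pseudocount of 0.1 FPKM, Acot5, which reached 1 FPKM with GBP5 alone, was called higher too (3 in all). The median of the members was 0.69 with a pseudocount of 0.1 FPKM, 0.20 with 5 FPKM, 0.14 with a filter of 5 FPKM, which left 8 members, 0.087 under the median rescaling, 0.38 when the sums were equalised leaving out the 50 most abundant genes, and 0.16 with no pseudocount and the median rescaling. Of 13599 features, those past 2-fold numbered 2605 higher and 756 lower as deposited, and 958 and 1276 after the median rescaling. With a pseudocount of 0.1 FPKM they numbered 3606 and 946, and with 5 FPKM 1101 and 435. With no pseudocount and the median rescaling they numbered 1746 and 1679. Equal sums (TPM), no filter and protein-coding genes only left the member counts as they were. Depth limits Acot5, with 26 reads with GBP5 and 5 with β-Gal. No paired analysis was possible because each group has 1 library.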
